A study of Homo sapiens with 15 samples.

Results

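The genes described here were 55 genes of DNA replication and mitosis, found by their gene names in the deposited table of raw read counts. They were 55 of 61544 genes in that table. The 27 S-phase members act at the G1/S boundary and during DNA synthesis, and the 28 mitotic members act from G2 to the end of cell division. All 55 passed a filter on low counts that left 25108 genes for testing.

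A cell copies its DNA once per division. In G1, ORC1, CDC6 and CDT1 load the MCM2 to MCM7 helicase onto origins, a step called licensing, and E2F factors released from the retinoblastoma protein RB1 switch on the genes for replication and nucleotide supply. In G2 and mitosis the kinases CDK1, PLK1 and Aurora switch on division, the spindle proteins sort the chromosomes, and the transcription factors FOXM1 and MYBL2, bound with the MuvB core at CHR elements, raise the mitotic genes, while the DREAM complex holds them down in resting cells.

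HCC95 is an established human cell line of lung squamous cell carcinoma. Cells received a negative control siRNA (siNC1) or 1 siRNA against KLF5 (siKLF5b), TP63 (siTP63b), SOX2 (siSOX2b) or GRHL2 (siGRHL2a), all transcription factors of squamous epithelium, with 3 libraries in each of the 5 groups. All groups shared the line and the transfection of an siRNA, and each factor was represented by 1 siRNA, so an effect of that siRNA on other transcripts cannot be told apart from an effect of the factor. Poly(A) RNA was sequenced, and the authors counted uniquely aligned reads per gene. Nothing in the labels says that the 3 libraries of a group came from separate cultures, so p-values measure only the spread between these libraries.

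Library totals ranged from 15655495 to 34229063 counts, and the members took 0.796% to 0.983% of them. The column names fell into 2 sets, siNC1 with siKLF5b and siTP63b, siSOX2b and siGRHL2a together, and among counts of 20 to 500 the share of even numbers was 49.7% to 50.7% in the first set and 66.1% to 69.0% in the second. For this reason siKLF5b was tested against siNC1, and the other 3 knockdowns were tested against each other; between the sets, knockdown and set cannot be told apart. Each targeted gene was lowest in its own group: KLF5 fell to between 71.8 and 73.8 CPM (counts scaled to the library's total) from between 107 and 123 CPM in siNC1, TP63 lay at 350 to 389 CPM in siTP63b and at 604 to 862 CPM elsewhere, SOX2 at 7.09 to 10.1 CPM in siSOX2b and at 18.4 to 109 CPM elsewhere, and GRHL2 at 90.8 to 91.9 CPM in siGRHL2a and at 96.0 to 143 CPM elsewhere. SOX2 lay at 27.1 to 31.5 CPM in siTP63b and 18.4 to 21.2 CPM in siGRHL2a, against 66.8 to 80.9 CPM in siNC1. GRHL2 lay at 96.0 to 105 CPM in siSOX2b, close to siGRHL2a, and at 134 to 136 CPM in siNC1. A comparison within the second set is therefore not a contrast of 1 factor alone. The basal keratin KRT5 was present at 4680 to 9491 CPM. Of the markers of other cell types, SFTPC, CD3E, CD79A and DCN never exceeded 2 counts in a library, and SFTPB, NAPSA, COL1A2 and PECAM1 reached 8, 17, 8 and 6 counts. Low levels were present for NKX2-1 of alveolar cells (2.06 to 10.6 CPM), COL1A1 of fibroblasts (1.64 to 6.28 CPM), VWF of endothelium (2.79 to 14.6 CPM) and PTPRC of immune cells (0.061 to 1.21 CPM), and their part in the results was not tested.

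The promoters of both classes are described first, although they were searched after the fits, because E2F factors and the DREAM complex recognise short sequences close to the start of a gene. RefSeq promoters of GRCh38.p14 were available for 24 of the 27 S-phase and 22 of the 28 mitotic members, and the 250 bases before the start were searched on both strands. The CHR element was searched as TTTGAA, the canonical form, or alternatively with the variant TTCGAA, and the CCAAT box by the 5 letters of its name. E2F was searched as TTCCCGC, or alternatively with the variant TTCGCGC, or alternatively with the variant TTGGCGC, or alternatively with the variant TTGCCGC. Matches of different motifs may overlap in a promoter. A CHR match was present in 14 mitotic promoters (63.6%) and in 2 S-phase promoters (8.33%), against 14.6% of all 27305 promoters. An E2F match was present in 13 S-phase promoters (54.2%) and in 4 mitotic promoters (18.2%), against 11.02% of all promoters. CCAAT boxes were frequent in both classes, at 70.8% of S-phase and 90.9% of mitotic promoters against 33.0% of all, and a CHR together with a CCAAT box stood in 59.1% of mitotic promoters and 5.24% of all. In 11 of the 14 mitotic promoters with a CHR match, one lay within 70 bases of the start, a distance chosen after seeing the positions. A match of letters describes the sequence and shows no binding, and an absent match does not show that a site is absent. These members are textbook cell cycle genes, so such motifs were known for many of them.

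Promoters of 6 members described in detail with the comparisons, 3 of each class, are printed 5′ to 3′, in lower case with matches to the 3 motifs in capitals. E2F1, at chr20:33686386-33686635 (minus strand), held E2F matches 33 and 19 bases before the start, and 3 CCAAT boxes. E2F2, at chr1:23531234-23531483 (minus strand), held a single E2F match 41 bases before the start and no CCAAT box. CDC6, at chr17:40287629-40287878 (plus strand), held 3 CCAAT boxes.
E2F1: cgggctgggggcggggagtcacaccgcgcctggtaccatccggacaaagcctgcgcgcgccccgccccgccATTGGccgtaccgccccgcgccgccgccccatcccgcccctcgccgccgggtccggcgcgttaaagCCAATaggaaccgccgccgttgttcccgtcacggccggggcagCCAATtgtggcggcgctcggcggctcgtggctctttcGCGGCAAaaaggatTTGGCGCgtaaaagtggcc
E2F2: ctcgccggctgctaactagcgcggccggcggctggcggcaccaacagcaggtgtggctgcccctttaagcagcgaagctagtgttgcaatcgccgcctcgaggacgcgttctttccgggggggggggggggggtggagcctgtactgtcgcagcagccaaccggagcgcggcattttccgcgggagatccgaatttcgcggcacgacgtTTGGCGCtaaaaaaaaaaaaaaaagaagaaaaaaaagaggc
CDC6: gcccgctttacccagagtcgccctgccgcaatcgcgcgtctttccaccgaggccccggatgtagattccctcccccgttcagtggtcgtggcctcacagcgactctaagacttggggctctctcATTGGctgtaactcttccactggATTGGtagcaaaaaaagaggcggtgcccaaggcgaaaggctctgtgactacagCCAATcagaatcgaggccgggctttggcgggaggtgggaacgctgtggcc
The mitotic promoters shown are those of HMMR at chr5:163460382-163460631 (plus strand), KIF23 at chr15:69414099-69414348 (plus strand) and PRC1 at chr15:90994536-90994785 (minus strand). HMMR held CHR matches 28 and 22 bases before the start, joined end to end, and 5 CCAAT matches of which the pair nearest the start overlap. KIF23 held a CHR match 55 bases before the start, and PRC1 held one 20 bases before it, each with a CCAAT box upstream.
HMMR: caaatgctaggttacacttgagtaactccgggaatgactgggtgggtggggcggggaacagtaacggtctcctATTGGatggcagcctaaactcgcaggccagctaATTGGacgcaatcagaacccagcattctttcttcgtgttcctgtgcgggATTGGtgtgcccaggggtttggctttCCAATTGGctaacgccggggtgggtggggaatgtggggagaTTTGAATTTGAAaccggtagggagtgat
KIF23: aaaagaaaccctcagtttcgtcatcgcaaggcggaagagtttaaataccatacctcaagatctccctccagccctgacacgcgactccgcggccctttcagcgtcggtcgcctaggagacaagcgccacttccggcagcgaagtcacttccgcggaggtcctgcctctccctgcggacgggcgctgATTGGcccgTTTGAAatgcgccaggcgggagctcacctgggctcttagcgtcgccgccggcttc
PRC1: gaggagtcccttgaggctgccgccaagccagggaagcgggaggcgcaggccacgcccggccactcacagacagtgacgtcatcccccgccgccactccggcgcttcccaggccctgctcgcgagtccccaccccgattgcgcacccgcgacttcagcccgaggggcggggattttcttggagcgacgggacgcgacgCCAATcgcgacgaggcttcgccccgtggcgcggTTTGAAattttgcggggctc

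The first comparison asked how the members differed after knockdown of KLF5, a zinc finger factor of basal epithelium. The classes moved in opposite directions. Of the 27 S-phase members 10 were higher and 2 lower in siKLF5b than in siNC1 at an adjusted p below 0.05 (quasi-likelihood test of edgeR, Benjamini-Hochberg adjusted over all genes tested), and of the 28 mitotic members 2 were higher and 10 lower, where 10.3% of all genes tested were higher and 12.9% lower. The changes were small. The median log2 fold change (log2FC) was 0.13 for S-phase members and -0.11 for mitotic members, against -0.0097 for all genes. With the added limit of an absolute log2FC above 0.75, which 3.26% of all genes passed, 0 members were called by edgeR, by an unadjusted p below 0.05 with the same limit, and by DESeq2. An adjustment for GC content and transcript length was chosen after seeing the data. With it 17 mitotic members were lower and 1 higher, and 5 S-phase members were lower and 10 higher. In that fit 15.5% of all genes were lower and 9.46% higher. In RNA from whole cultures, a shift in the share of cells in a phase and a change of RNA per cell cannot be told apart.

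HMMR, which encodes a hyaluronan receptor that also binds spindle microtubules, showed the largest difference. It measured 254, 261 and 266 CPM in the siNC1 libraries and 159, 158 and 151 CPM in the siKLF5b libraries. The groups lay far apart, and the log2FC was -0.74 ± 0.062 (SE; adjusted p = 1.14e-10). Its antisense gene HMMR-AS1, which overlaps it and held 23.97% as many counts, differed alike (log2FC -0.77), and whether reads of the pair were shared in the counting was not tested.

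KIF23, a kinesin of the central spindle that separates daughter cells, fell from 272, 281 and 284 CPM to 212, 214 and 210 CPM (log2FC -0.40 ± 0.044, adjusted p = 3.05e-08). PLK1, a kinase needed from mitotic entry to cytokinesis, was lower by a log2FC of -0.31 (adjusted p = 0.00116). CDC20, the activator of the anaphase-promoting complex, was lower by -0.29 (adjusted p = 0.00163). These 4 mitotic genes kept their call when any library was left out. The remaining mitotic members called lower, among them AURKA, AURKB, TTK, KIF20A and UBE2C, had log2FC between -0.26 and -0.13, and each lost its call without at least 1 library, with adjusted p up to 0.149. MKI67, the proliferation marker Ki-67, was 1163 ± 22.5 CPM in siNC1 and 1060 ± 28.3 CPM in siKLF5b (SD, n = 3). Its log2FC of -0.13 had an adjusted p of 0.0402 that rose to 0.116 without siKLF5b replicate 1. The MKI67 call was also lost without siKLF5b replicate 3, siNC1 replicate 1 or siNC1 replicate 3.

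BIRC5 and CENPF were the mitotic members called higher. BIRC5, or survivin, is a subunit of the chromosomal passenger complex, and measured 59.4, 61.9 and 64.1 CPM in siNC1 and 82.0, 82.6 and 79.2 CPM in siKLF5b (log2FC 0.40 ± 0.056, adjusted p = 2.2e-06). AURKB, the kinase of that complex, was among those lower (log2FC -0.21, adjusted p = 0.0224), a call that depended on single libraries as given above. The other subunits, outside the members, were CDCA8, lower by -0.29 (adjusted p = 0.00347), and INCENP at 0.067, which did not pass. At the level of RNA, BIRC5 was thus the only subunit of this complex called higher. CENPF, an outer kinetochore protein, was higher by a log2FC of 0.22, a call that was lost after adjustment for GC content and transcript length.

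Within the S-phase class the licensing factors split. MCM4, a subunit of the replicative helicase, measured 303, 317 and 321 CPM in siNC1 and 228, 234 and 229 CPM in siKLF5b (log2FC -0.45 ± 0.045, adjusted p = 5.52e-09). CDC6, the loader of that helicase, measured 86.0, 93.4 and 93.2 CPM against 69.8, 73.0 and 74.0 CPM (log2FC -0.33 ± 0.054, adjusted p = 2.12e-05). Of the 8 S-phase members with a log2FC below 0, these were the 2 called lower at an adjusted p below 0.05. The groups did not overlap for either gene. MCM3, a partner of MCM4 in the same ring, was higher by 0.26 (adjusted p = 6.36e-05), and MCM2, MCM5 and MCM6 had log2FC of 0.13, -0.0049 and 0.0073 that did not pass. ORC1, a subunit of the origin recognition complex, was higher by 0.33 (adjusted p = 0.00161) and CDC45, a helicase cofactor, by 0.33 (adjusted p = 0.000459).

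GINS2, another helicase cofactor, had the highest log2FC of the class at 0.43 (adjusted p = 0.000435), from a mean of 15.6 CPM to 21.0 CPM. It lies across GSE1, a gene with 259% as many counts that was lower in siKLF5b. BRCA1, which acts in repair of broken DNA, was higher by 0.26 (adjusted p = 0.000136). E2F1, the founding activator of the E2F family, measured 15.1, 13.4 and 13.8 CPM in siNC1 and 18.1, 16.4 and 17.5 CPM in siKLF5b. Its log2FC of 0.29 had an adjusted p of 0.00858, which became 0.0534 without siNC1 replicate 2 and 0.0677 without siKLF5b replicate 1. The nucleotide enzymes RRM2 and TYMS, the licensing factor CDT1 and the methylation cofactor UHRF1 had log2FC of 0.10, 0.13, 0.23 and -0.18, and none of the 4 passed. FOXM1, CDK1, CCNB1 and TOP2A likewise did not pass, with log2FC from -0.12 to -0.039. The E2F factors E2F7 and E2F8 lay at -0.18 and 0.30 without passing, as did TK1 at -0.14, CCNB2 at 0.063, ESPL1 at -0.20, CENPA at -0.043, BUB1B at -0.025 and NUSAP1 at -0.0045. RRM1, the large subunit of ribonucleotide reductase, was higher by 0.19. It lost its call without siNC1 replicate 1 (adjusted p = 0.0686) or siKLF5b replicate 2 (adjusted p = 0.0584).

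**Figure D1:**
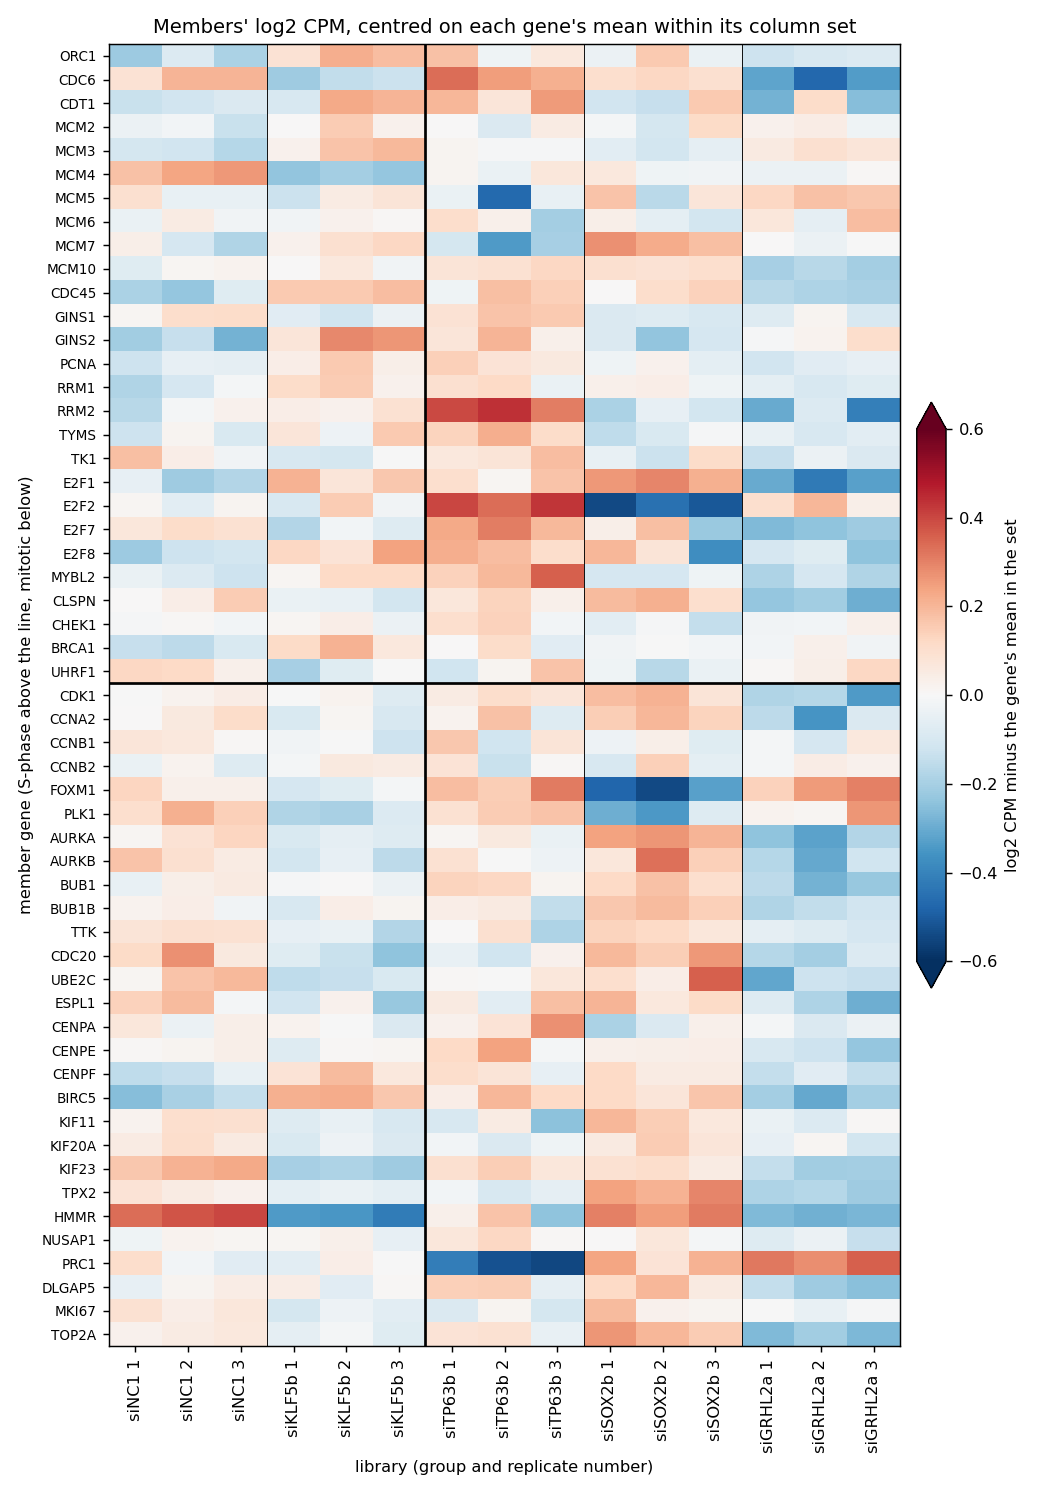
Each cell is the log2 CPM of 1 member (y axis) in 1 of 15 libraries (x axis), minus the gene's mean within its column set; red is above and blue below that mean, and the thick lines part the classes and the sets. HMMR, KIF23, MCM4 and CDC6 are blue in all 3 siKLF5b libraries and BIRC5 and CDC45 red, and most mitotic members are red in siSOX2b and blue in siGRHL2a.

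Among siTP63b, siSOX2b and siGRHL2a, each comparison shares its libraries with the other two, so the 3 sets of counts are not independent of each other. By group means, siTP63b was highest for 19 of 27 S-phase members, siSOX2b was highest for 18 of 28 mitotic members, and siGRHL2a was lowest for 15 S-phase and 20 mitotic members. These ranks used no threshold, and some group is always highest or lowest. They were not counted over all genes, so they show no trait particular to the members. Pairwise fold changes follow.

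Between siTP63b and siSOX2b the classes again moved apart. In siTP63b, 9 S-phase members were higher and 1 lower, and 3 mitotic members were higher and 11 lower, where 16.4% of all genes were higher and 15.4% lower. The medians were 0.10 for S-phase members and -0.10 for mitotic members, against 0.00059 for all genes. A single member passed both thresholds, as 6.7% of all genes did. This was E2F2, an activating E2F factor, with 12.9, 12.3 and 13.1 CPM in siTP63b and 6.66, 7.12 and 6.81 CPM in siSOX2b (log2FC 0.89 ± 0.10, adjusted p = 2.53e-08).

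FOXM1, the activator of the mitotic genes, went against most of its own class. It measured 171, 167 and 187 CPM in siTP63b, 108, 103 and 120 CPM in siSOX2b and 166, 180 and 186 CPM in siGRHL2a, so that siSOX2b stood alone below the other two groups. The log2FC was 0.66 ± 0.056 for siTP63b against siSOX2b (adjusted p = 6.2e-11) and -0.68 ± 0.056 for siSOX2b against siGRHL2a (adjusted p = 1.05e-10). ITFG2, which overlaps FOXM1 on the other strand with 59.8% as many counts, differed in the same directions by 0.45 and -0.45, while RHNO1, which also overlaps it, did not pass (0.027 and 0.13).

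PLK1 was also lowest in siSOX2b, with 71.9, 75.1 and 75.9 CPM in siTP63b, 55.1, 53.2 and 64.0 CPM in siSOX2b and 68.5, 68.0 and 81.2 CPM in siGRHL2a. All 3 siSOX2b libraries were below the others, with a log2FC of 0.37 (adjusted p = 5.18e-05) against siTP63b and -0.34 (adjusted p = 0.000256) against siGRHL2a. ENSG00000261266, which overlaps PLK1 with 23.1% as many counts, moved with it (0.42 and -0.38). E2F2 was likewise lowest in siSOX2b, at -0.62 ± 0.10 against siGRHL2a (adjusted p = 2.77e-05).

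PRC1, which bundles microtubules of the central spindle together with KIF23, was set apart in siTP63b. It measured 118, 109 and 108 CPM there, 185, 166 and 181 CPM in siSOX2b and 195, 191 and 201 CPM in siGRHL2a. The log2FC was -0.67 ± 0.053 against siSOX2b (adjusted p = 1.17e-11) and -0.81 ± 0.053 against siGRHL2a (adjusted p = 2.16e-13), and the latter made PRC1 the only member past both thresholds in that comparison. PRC1-AS1 on the other strand and ENSG00000284946 on the same strand held 96.3% and 112% as many counts and differed by -0.66 and -0.61 against siSOX2b, so the counts do not assign this difference to PRC1 alone.

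The remaining mitotic members that were lower in siTP63b than in siSOX2b included TPX2, a spindle assembly factor that activates AURKA (log2FC -0.30, adjusted p = 1.26e-06), HMMR (-0.29), AURKA (-0.23), KIF11 (-0.23) and CDC20 (-0.24). TOP2A, the topoisomerase that untangles chromosomes, was lower by -0.16 and MKI67 by -0.14. The MKI67 call was lost without siSOX2b replicate 1 (adjusted p = 0.204) and also without siTP63b replicate 1 or siTP63b replicate 3. On the S-phase side RRM2, the regulatory subunit of ribonucleotide reductase, was the most different gene after E2F2. It measured 308, 317 and 290 CPM in siTP63b and 205, 226 and 217 CPM in siSOX2b (log2FC 0.50 ± 0.061, adjusted p = 1.18e-07). TYMS, which makes thymidylate, was higher in siTP63b by 0.24 and MYBL2 by 0.31. MCM7 was the S-phase member called lower in siTP63b, with 308, 261 and 289 CPM against 400, 386 and 375 CPM (log2FC -0.44, adjusted p = 1.41e-07). MCM2, MCM5 and E2F1 had log2FC of -0.010, -0.20 and -0.16 that did not pass.

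Smaller differences filled the remaining roles between siTP63b and siSOX2b. GINS2 was higher by 0.25, CDC6 by 0.16 and the checkpoint kinase CHEK1 by 0.15, and each of these calls was lost without 1 or more libraries, with adjusted p up to 0.112, 0.111 and 0.197. CENPA, the histone that marks centromeres, was higher by 0.21 on the same terms, and its adjusted p reached 0.101 when a library was left out. CLSPN, RRM1, CDT1 and UHRF1 did not pass, with log2FC of -0.090, 0.046, 0.21 and 0.10. Among mitotic genes CDK1, CCNA2, CCNB1, ESPL1, CENPF and NUSAP1 did not pass, with log2FC between -0.12 and 0.066, whereas KIF20A was lower by -0.14 with a call lost without siTP63b replicate 2 or siSOX2b replicate 2 (adjusted p = 0.0943 and 0.117).

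Between siTP63b and siGRHL2a both classes were mostly higher in siTP63b. There 16 S-phase members were higher and 2 lower, and 17 mitotic members were higher and 1 lower, where 13.6% of all genes were higher and 13.4% lower, and 5.39% passed both thresholds. The medians were 0.19 and 0.17, against -0.0090 for all genes. All 5 nucleotide and clamp genes (PCNA, RRM1, RRM2, TYMS and TK1), all 5 E2F and MYB factors and all 4 kinetochore and passenger genes (CENPA, CENPE, CENPF and BIRC5) were higher at an adjusted p below 0.05 in the fit of all libraries. Of these, RRM1, E2F2, E2F8, CENPA and CENPF lost their call when 1 library or another was left out, with adjusted p up to 0.132, 0.1, 0.113, 0.197 and 0.063, as did CDT1 (log2FC 0.31, adjusted p up to 0.126).

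CDC6 and RRM2 were the members most raised in siTP63b against siGRHL2a. CDC6 measured 157, 148 and 144 CPM in siTP63b, 133, 136 and 133 CPM in siSOX2b and 99.9, 89.7 and 98.6 CPM in siGRHL2a. The 3 groups did not overlap, and the log2FC was 0.64 ± 0.051 for siTP63b against siGRHL2a (adjusted p = 1.86e-11) and 0.48 ± 0.051 for siSOX2b against siGRHL2a (adjusted p = 1.52e-08). RRM2 was higher in siTP63b than in siGRHL2a by 0.64 ± 0.061 (adjusted p = 9.46e-10), while siSOX2b and siGRHL2a overlapped (0.14, adjusted p = 0.0875).

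E2F7, a repressor of the family, was higher in siTP63b than in siGRHL2a by 0.48 (adjusted p = 8.14e-07), E2F1 by 0.45 (adjusted p = 9.43e-06) and MYBL2 by 0.39 (adjusted p = 6.75e-07). Among mitotic members BIRC5 was higher by 0.36, BUB1, a checkpoint kinase, by 0.31, CDK1 by 0.30, KIF23 by 0.29 and TOP2A by 0.29, each with a call that held without any 1 library. Beside PRC1, the members called lower in siTP63b than in siGRHL2a were the helicase subunits MCM5 and MCM7. MCM5 measured 88.9, 66.1 and 88.7 CPM in siTP63b and 99.7, 103 and 102 CPM in siGRHL2a (log2FC -0.33, adjusted p = 0.00257), and the low siTP63b replicate 2 carried this call, which without it was -0.19 with an adjusted p of 0.0543. MCM7 depended on the same library, at -0.20 with it and -0.13 without it (adjusted p = 0.00559 and 0.0922). MCM2, MCM3, MCM4 and MCM6 had log2FC between -0.086 and 0.038 and did not pass. FOXM1, PLK1, CCNB1, CDC20, KIF20A and MKI67 did not pass either, with log2FC between -0.040 and 0.11. In the other roles the ends were UHRF1 at -0.030 and CLSPN at 0.32 among fork and methylation genes, CCNB2 at -0.032 among cyclins, and CDC20 at 0.11 and ESPL1 at 0.24 among genes of anaphase.

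Between siSOX2b and siGRHL2a more mitotic than S-phase members differed. In siSOX2b, 20 of 28 mitotic members were higher and 3 lower, and 7 of 27 S-phase members were higher and 2 lower, where 11.8% of all genes were higher and 12.7% lower. The medians were 0.29 for mitotic and 0.067 for S-phase members, against -0.018 for all genes. The limit of 0.75 was passed by 3.32% of all genes and by 0 members with edgeR, with an unadjusted p below 0.05 and with DESeq2. The 3 mitotic members called lower in siSOX2b were FOXM1, PLK1 and PRC1. PRC1 had a log2FC of -0.14 and lost its call in 4 of the fits without 1 library, with adjusted p up to 0.299.

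TOP2A measured 708, 676 and 655 CPM in siSOX2b and 491, 510 and 488 CPM in siGRHL2a (log2FC 0.45 ± 0.045, adjusted p = 4.66e-09). AURKA, the kinase of spindle poles, measured 169, 172 and 164 CPM against 121, 114 and 127 CPM (log2FC 0.48 ± 0.048, adjusted p = 4.21e-09). HMMR measured 164, 158 and 165 CPM against 110, 109 and 109 CPM (log2FC 0.56 ± 0.062, adjusted p = 2.59e-08). The groups were separate for all 3 genes. TPX2, the partner of AURKA, was higher by 0.44 (adjusted p = 2.81e-09), CDK1 by 0.39, AURKB by 0.38, and UBE2C and CDC20, which act with the anaphase-promoting complex, by 0.36 and 0.35. ESPL1, or separase, was higher by 0.31, so all 3 genes of anaphase and mitotic exit were called. CCNB1 and CCNB2, the B-type cyclins, differed by -0.0070 and -0.017 and did not pass.

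E2F1 was the S-phase member most raised in siSOX2b against siGRHL2a, with 40.2, 41.2 and 39.0 CPM in siSOX2b and 27.2, 24.96 and 26.8 CPM in siGRHL2a (log2FC 0.61 ± 0.070, adjusted p = 6.86e-08). E2F1 and E2F2 moved in opposite directions between these groups. CLSPN, or claspin, an adaptor of the replication checkpoint, was higher in siSOX2b by 0.41 (adjusted p = 3e-06). MCM2, TYMS, CDT1 and UHRF1 did not pass, with log2FC between -0.13 and 0.10. GINS2 at -0.18, RRM2 at 0.14 and, in the mitotic class, CENPA at -0.037 and MKI67 at 0.099 did not pass either, while BIRC5 was higher by 0.35 (adjusted p = 8.09e-06).

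**Figure D2:**
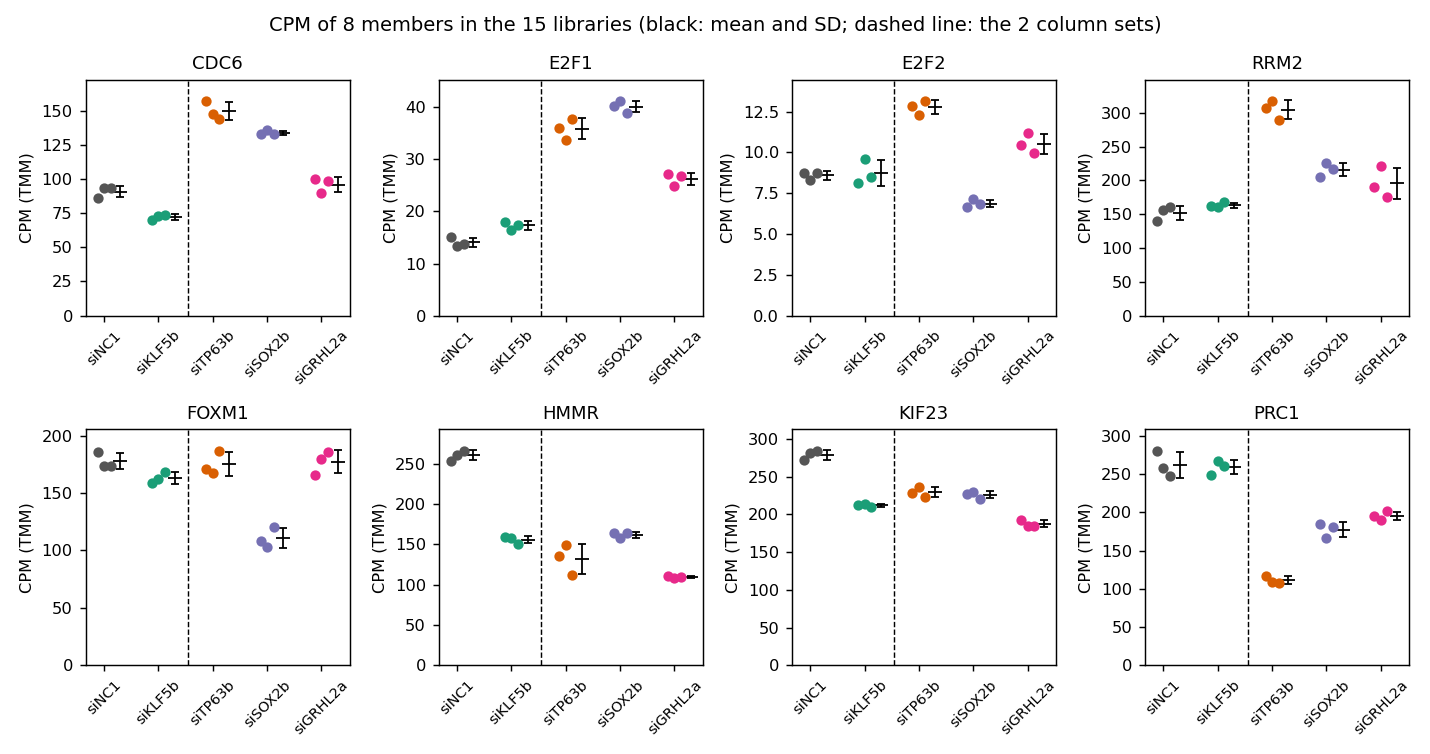
CPM of 8 members in each library, by group, with the mean and SD in black; the y axes start at 0 and the dashed line parts the column sets. FOXM1 and E2F2 are lowest in siSOX2b, PRC1 is lowest in siTP63b, and HMMR and KIF23 are lower in siKLF5b than in siNC1.

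The 2 classes were then set side by side. The median log2FC of S-phase members minus that of mitotic members was 0.24 for siKLF5b against siNC1, 0.21 for siTP63b against siSOX2b, 0.022 for siTP63b against siGRHL2a and -0.22 for siSOX2b against siGRHL2a. Per library, the mean log2 CPM of S-phase members minus that of mitotic members was -1.36, -1.37 and -1.36 in siNC1 and -1.22, -1.18 and -1.14 in siKLF5b. All 3 siKLF5b libraries lay above all siNC1 libraries. The values were -0.65, -0.68 and -0.61 in siTP63b, -0.82, -0.83 and -0.84 in siSOX2b and -0.72, -0.66 and -0.72 in siGRHL2a. siSOX2b was separate from the other two, which overlapped. These are descriptions of chosen genes and carry no test.

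**Figure D3:**
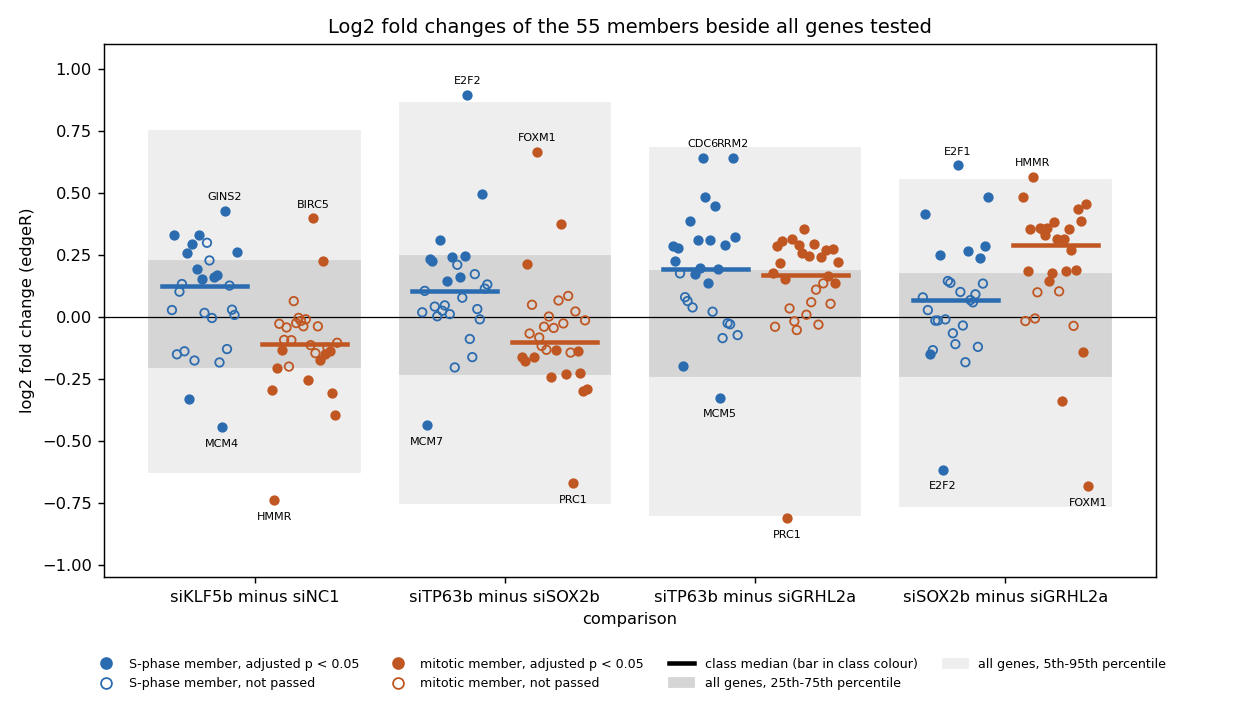
Log2FC of every member (points, S-phase blue and mitotic orange, filled at an adjusted p below 0.05) in the 4 comparisons, with class medians as bars and the 25th to 75th and 5th to 95th percentiles of all genes in grey. The medians are 0.13 and -0.11 for siKLF5b against siNC1 and 0.067 and 0.29 for siSOX2b against siGRHL2a.

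Members of a class with and without a motif were also compared. In siKLF5b against siNC1 the 14 mitotic members with a CHR match had a median log2FC of -0.11 with 5 lower, and the 8 without one had -0.066 with 2 lower. The 13 S-phase members with an E2F match had a median of 0.16 with 7 higher, and the 11 without had 0.029 with 3 higher. In that comparison 10.3% of all genes tested were higher and 12.9% lower. In siSOX2b against siGRHL2a the medians were 0.29 with and 0.19 without a CHR match, and 0.058 with and 0.078 without an E2F match. In siTP63b against siSOX2b they were -0.11 and -0.034 for CHR, and 0.10 and 0.13 for E2F. In siTP63b against siGRHL2a they were 0.16 and 0.19 for CHR, and 0.17 and 0.28 for E2F, so that members without the motif had the higher median there. These medians carry no test.

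Many members overlap other genes, and whether reads were shared in the counting was not tested. The table counted each gene over its whole span, introns included, and 28 members overlap another listed gene, 18 of them one with at least 10% as many counts. Without these 18, a choice made after seeing the data, siKLF5b had 7 of 19 S-phase members higher and 2 lower. Of 18 mitotic members 2 were higher and 7 lower, where 10.3% of all genes tested were higher and 12.9% lower. The 2 lower S-phase and 2 higher mitotic members were near those shares. The S-phase median was then 0.029, nearer to that of all genes, and the mitotic median -0.12. In siSOX2b against siGRHL2a, 16 of the 18 remaining mitotic members were higher, with a median of 0.34, where 11.8% of all genes were higher.

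Pathway genes outside the 55 were counted by the same fit. For siKLF5b against siNC1, 17 of 56 other S-phase genes were higher and 7 lower, and 3 of 63 other mitotic genes were higher and 19 lower. Among all genes tested, 10.3% were higher and 12.9% lower, and the 7 lower S-phase genes were near that share. The mitotic genes with the smallest p were KPNA2, an importin, RACGAP1, the partner of KIF23 at the central spindle, and CDC25B, a phosphatase that activates CDK1, with log2FC of -0.40, -0.46 and -0.40. On the S-phase side RPA1, which coats single-stranded DNA, and CDK2 and DBF4, which act in the kinases that fire origins, were lower by -0.52, -0.50 and -0.43. CDCA7, the clamp loader subunit RFC2 and the fork protection factor TIPIN were higher by 0.49, 0.45 and 0.61. CDKN1A, which encodes the CDK inhibitor p21, had the largest change of the RB and DREAM list, from a mean of 10.96 CPM to 4.19 CPM (log2FC -1.38 ± 0.12, adjusted p = 2.41e-10). In that list 7 of 18 tested genes were lower, RB1 and CDKN1B among them (-0.26 and -0.32), and 2 were higher, the RB1 relatives RBL1 and RBL2 (0.38 and 0.19).

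In the second set, siTP63b against siGRHL2a gave 31 of 56 other S-phase genes and 40 of 63 other mitotic genes higher, and 2 mitotic genes lower. The share of all genes was 13.6% higher and 13.4% lower. Highest among these pathway genes were CCNE1, the cyclin of S-phase entry, at 0.88, CDC25A at 0.79 and CDC25B at 0.69. Against siSOX2b, siTP63b had 15 S-phase genes higher and 7 lower, and 11 mitotic genes higher and 19 lower. There 16.4% of all genes were higher and 15.4% lower, and the 7 lower S-phase and 11 higher mitotic genes were near those shares. ANLN, the anillin of the cleavage furrow, was higher by 0.82, and CKAP2L, a spindle protein, was lower by -0.80. For siSOX2b against siGRHL2a, 22 S-phase genes were higher and 2 lower, and 43 mitotic genes were higher and 2 lower. ANLN lay at -0.35 and CKAP2L at 0.69, and 11.8% of all genes were higher and 12.7% lower. CDKN1A was higher in siTP63b than in siGRHL2a by 0.55 (adjusted p = 3.92e-05) and than in siSOX2b by 0.34 (adjusted p = 0.00655). E2F3 was higher in siTP63b by 0.45 and 0.24 against these groups.

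Levels beside siNC1 are given without a test, since the set and the knockdown cannot be told apart. In all 3 groups of the second set S-phase members tended to lie above siNC1 and mitotic members below, with medians of 0.28 and -0.37 in siTP63b, 0.23 and -0.34 in siSOX2b and 0.15 and -0.51 in siGRHL2a, where the medians of all genes were 0.019, 0.015 and 0.044. CDT1 measured 6.34 to 6.54 CPM in siNC1 and 16.01 to 23.3 CPM in the 9 libraries of the second set. UHRF1 measured 26.9 to 28.7 CPM and 49.5 to 62.5 CPM. CENPE, a kinesin of the kinetochore, went the other way, from 208 to 212 CPM in siNC1 to 69.6 to 96.5 CPM, and TOP2A from 965 to 993 CPM to 488 to 708 CPM. The median GC content of the members was 50.7% in the S-phase and 45.1% in the mitotic class, and after adjustment for GC content and length the medians were 0.28 and -0.31, 0.18 and -0.21, and 0.17 and -0.41. For CDT1, UHRF1, CENPE and TOP2A, which go with their class, all 9 libraries lay on the same side of siNC1. Other members went against their class. In siTP63b, siSOX2b and siGRHL2a, 7, 8 and 5 of 28 mitotic members lay above siNC1. In the same order, 5, 7 and 8 of 27 S-phase members lay below it. UBE2C was 26.4 to 29.9 CPM in siNC1 and 39.9 to 63.6 CPM in the 9 libraries, and RRM1 168 to 188 CPM and 132 to 154 CPM.

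**Figure D4:**
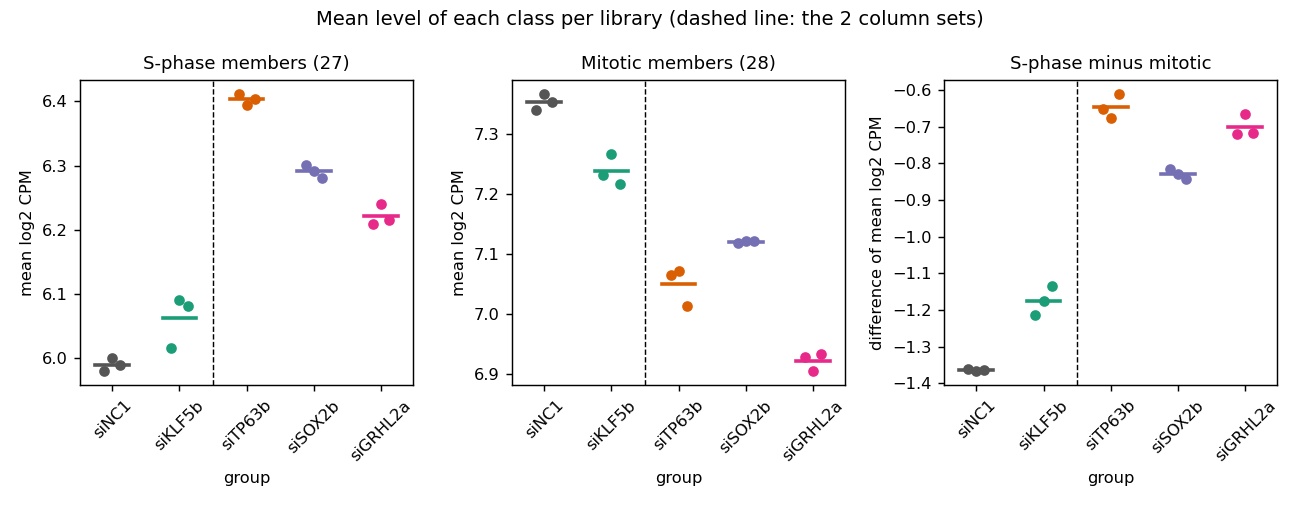
Mean log2 CPM of the 27 S-phase members (left), the 28 mitotic members (middle) and their difference (right) in each library, with bars for group means and a dashed line between the column sets; the y axes do not start at 0. siTP63b is highest for S-phase members, and among the groups of the second set siSOX2b is highest and siGRHL2a lowest for mitotic members.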

How the data were processed

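Poly(A) RNA of HCC95 cells was sequenced in 5 siRNA groups of 3 libraries. Per the labels and the study's methods, the authors aligned reads to hg38 with HISAT2 2.2.1 and deposited raw counts per gene from featureCounts 2.0.1, without normalization; the versions come from the submitters' processing notes, and strand and treatment of overlapping genes are not given in the sources used here. All count columns matched a library by name. edgeR 4.0.16 in R 4.3.3 (TMM, filterByExpr by group, 1 quasi-likelihood fit of 15 libraries) tested 25108 genes, with p adjusted over all of them by Benjamini-Hochberg. Calls used an adjusted p below 0.05, with or without an absolute log2FC above 0.75. CPM used TMM library sizes, and class means were taken over log2 CPM (prior count 2). The fit was also run on simulated counts with the same spread for every gene, which differs from these data. That run does not bear on the calls given here. Deviations of same-numbered libraries from their group means correlated at -0.19 to 0.11. With 3 libraries per group this cannot settle whether the replicate numbers pair libraries.

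The members, pathway lists and motifs were chosen with earlier results of these data known. Named were fixed anchor genes, members past both thresholds or with the smallest adjusted p per direction, the extremes of each role, and up to 3 genes per direction of the other lists. GC content and length were medians over each gene's Gencode transcripts in the reference, not values of the whole span that was counted. Alternatives were other normalizations, filters, fold limits, DESeq2 1.42.0, the 6 libraries compared alone, a replicate block, leaving out each library, and GC content and length offsets, the last added after seeing the data.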

Additional observations from a re-analysis of the deposited data

How the results depend on the processing

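Of the 116 member calls over the 4 comparisons, 0 turned direction under any alternative. At least 10 counts in every library kept 116, RLE size factors 115, DESeq2 and the replicate block 114 each, upper-quartile normalization 111, no low-count filter 107, the 6 compared libraries alone 106, and GC content and length offsets 105. Calls that held without any 1 library numbered 13 of 24 for siKLF5b against siNC1, 15 of 24 for siTP63b against siSOX2b, 23 of 36 for siTP63b against siGRHL2a and 26 of 32 for siSOX2b against siGRHL2a. Fits with 2 libraries in a group pool the spread of the others.

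With GC content and length offsets, members lower in siKLF5b rose from 12 to 22 and members lower in siSOX2b than in siGRHL2a fell from 5 to 3, and 1 member passed both thresholds in siKLF5b; the cause was not tested. With a limit of 0.5 the members past both thresholds were 1, 3, 3 and 4 in the 4 comparisons in that order, and with a limit of 1 they were 0 in siTP63b against siSOX2b and 0 against siGRHL2a. Leaving out 1 library gave 0 to 1 members past both thresholds in siKLF5b, 7 to 11 members lower in siKLF5b (7 without siKLF5b replicate 1 or 3), 1 to 3 lower in siTP63b than in siGRHL2a (1 without siTP63b replicate 2), and 3 to 5 lower in siSOX2b (3 without siSOX2b replicate 2 or siGRHL2a replicate 3). The S-phase minus mitotic median ranged from 0.19 to 0.26 in siKLF5b, 0.16 to 0.21 and -0.0029 to 0.051 in siTP63b against siSOX2b and siGRHL2a, and -0.26 to -0.19 in siSOX2b against siGRHL2a. The value near 0 changed sign without siTP63b replicate 3, so no direction is given for it.

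With the replicate number as a block, 0 members passed both thresholds in siKLF5b, and 13 were lower and 12 higher. The labels do not say whether same-numbered libraries share more than a number. In the other comparisons the block moved no count of calls by over 1.5 times.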

Other observations

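Some members showed differences that the classes do not describe. E2F1 and E2F2, both activators of the E2F family, differed in siSOX2b. There E2F1 was 40.1 ± 1.11 CPM (SD, n = 3), above siGRHL2a but not past the threshold against siTP63b, and E2F2 was lowest at 6.87 ± 0.235 CPM. Both were higher in siTP63b than in siGRHL2a. PRC1 and KIF23, which act together at the central spindle, also parted in these counts. Genes that overlap PRC1 differed alike in siTP63b, so the counts do not assign that difference to PRC1 alone. PRC1 was 262 ± 16.7 CPM in siNC1 and 259 ± 9.31 CPM in siKLF5b (SD, n = 3), where KIF23 fell, and PRC1 was lowest in siTP63b, where KIF23 was 229 ± 6.57 CPM beside 226 ± 4.51 CPM in siSOX2b.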
